A study of Mus musculus with 2 samples.

Results

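SOX4, Sox11, Sox5, Sox6 and SOX13 are 5 of the 579 transcription-factor motifs counted in single-cell chromatin accessibility data of mouse retina. They were picked by name, ignoring case, because they are the motifs of SOX group C (SOX4, Sox11) and SOX group D (Sox5, Sox6, SOX13) in the table. All 5 names were found, each once. The data come from 1 group, wild-type (WT) retina at age E14.5, a mid-gestation embryo, in 2 replicate libraries made with the 10X Genomics single-cell ATAC-seq protocol, which cuts and tags open chromatin in single nuclei. The values are counts of motif occurrences in the open chromatin of each cell barcode, so they describe DNA that a factor could bind, not the factor's expression or its binding. The question asked here was whether the motifs of SOX groups C and D vary across cells with the POU4F motifs of ganglion cells or with the SOX and TEAD motifs of progenitors.

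SOX proteins bind DNA through an HMG box that recognises a short AT-rich core shared across the family, and bend the DNA there. Retinal progenitors express the group B factors Sox2 and, later, the group E factors Sox8 and Sox9, which keep them in cycle and prepare glial fate. The group C genes Sox4 and Sox11 encode transcriptional activators that are switched on in newly born neurons, and mouse retinas that lack both form hardly any ganglion cells. Pou4f1, Pou4f2 and Pou4f3 encode the POU-domain factors of differentiating ganglion cells. Group D factors (Sox5, Sox6, Sox13) have a coiled-coil domain and no activation domain of their own, and act with other SOX factors in cartilage, glia and neurons. Because SOX motifs share their core, one stretch of open DNA can be counted for several of them, and a motif count cannot tell which SOX protein uses it.

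After a filter for barcodes with at least 300000 motif counts that were deeper than the same barcode in the other library, 890 of 2422 barcodes were kept in replicate 1 and 1051 of 3033 in replicate 2. The median total was 3519151 motif counts per kept cell in replicate 1 and 3523871 in replicate 2. The libraries share 1828 barcodes, and 98.0% of the kept cells of replicate 1 and 88.0% of those of replicate 2 have a shallow copy in the other library, with a median of 1.77% and 0.789% of the kept cell's total. Leaving out every shared barcode would leave 18 and 126 cells, too few for the comparisons, so all results rest on cells whose barcodes are shared. The labels do not say that the replicates came from separate animals. The p-values therefore measure the spread that each fit leaves between sums of cells in these 2 libraries. That spread may be technical, and it also holds any joint effect of the cell classes that a fit leaves out.

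The 5 motifs differed widely in how often they were counted. Sox5 took 1.37% of all motif counts in replicate 1 and 1.36% in replicate 2, ranking 13 of 579 in both. Sox6 took 0.134% and 0.136%, and SOX13 took 0.0384% and 0.0390%. The group C motifs were the rarest, with 0.0222% and 0.0245% for Sox11 and 0.0117% and 0.0126% for SOX4. Summed over the motifs, this was 1.58% of all counts (mean of 2 libraries), and Sox5 alone was counted 113 times as often as SOX4. These levels depend on how permissive each motif's matrix is, so they compare motifs in the table and not the number of sites a protein occupies.

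Per kept cell, SOX4 averaged 435 counts in replicate 1 and 459 in replicate 2, with a median of 404 and 439 and a range of 24 to 2981 and 20 to 2443. Sox11 averaged 825 and 891 counts, SOX13 1431 and 1420, Sox6 5004 and 4939, and Sox5 51005 and 49677. No kept cell was at 0 for any of the 5. The libraries gave nearly the same share of Sox5, Sox6 and SOX13, but replicate 2 was above replicate 1 by 0.11 on the log2 scale for SOX4 and by 0.14 for Sox11. The median absolute difference between libraries over the 579 motifs was 0.021, and Sox11 and SOX4 ranked 38 and 57 by this difference. Every comparison below is therefore made within a library.

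Of the 5, SOX4 had the widest spread from cell to cell without regard to abundance. Its excess coefficient of variation (CV), which is the spread of its share across cells beyond what counting gives, was 9.37% ± 0.12 (SD, n = 2 libraries). Sox11 followed with 7.06% ± 0.40 and SOX13 with 6.34% ± 0.13, close to the median motif at 6.19% in replicate 1 and 6.27% in replicate 2. Sox6 (3.69% ± 0.10) and Sox5 (1.98% ± 0.05) varied less than the median motif. From the 5th to the 95th percentile of cells, counts per 10000 ran from 0.960 to 1.37 for SOX4 and from 132 to 141 for Sox5 in replicate 1, so the most abundant motif had the narrowest range. The order changes with abundance taken into account: against the trend of excess CV with abundance over the 579 motifs, SOX13 was highest of the 5 (0.10 above the trend on the log2 scale, mean of 2 libraries), SOX4 was 0.05 above it (place 257 and 224 of 579), Sox11 was -0.07 and 0.07 from it, and Sox6 (-0.19) and Sox5 (-0.23) lay below.

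Across cells, the group C motifs went together and the group D motifs did not form 1 group. Correlations were taken within each library on log2(counts per 10000 + 1) after regressing out log10 total; the cells of a library share its depth and base composition, so the values are descriptions. SOX4 and Sox11 had a mean Pearson r of 0.58 over 890 and 1051 cells, and each was the other's nearest of 578 motifs. SOX21, a group B repressor, came next for both (r 0.49 with SOX4 and 0.50 with Sox11), ahead of Sox1 for Sox11 (0.49) and of Sox5 (0.35) and Sox1 (0.34) for SOX4. The fifth neighbour of SOX4 was the forkhead motif Foxj2 (0.30), and LIN54, a subunit of a cell-cycle gene repressor complex, was the fourth of Sox11 (0.39), before Sox5 (0.39). Their correlation with Sox2 was low, at 0.09 for SOX4 and 0.19 for Sox11, and with Sox3 it was -0.01 and 0.12.

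Sox6 and SOX13 had other neighbours. Both were nearest to SOX9 (r 0.66 for Sox6 and 0.58 for SOX13), the group E factor of progenitors and Müller glia. SOX15 (0.64 and 0.48) and Sox17 (0.62 and 0.45) were also among the nearest 5 of each, and SOX13 had Sox6 second (0.50). The homeodomain motifs BSX (0.52) and EN1 (0.51) filled the list of Sox6, and EN1 (0.46) that of SOX13. Sox5 had no SOX motif among its nearest 5, with SRY at place 15 (0.64) and SOX9 at place 23 (0.60). It was closest to AT-rich homeodomain motifs: Dlx3 (0.71), Dlx4 (0.71), SHOX (0.70), UNCX (0.70) and Prrx2 (0.70). Its r was 0.32 with Sox6 and 0.27 with SOX13, against 0.35 with SOX4 and 0.39 with Sox11.

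The motifs most opposed to the 5 were GC-rich ones and E-boxes. For SOX4 they included Myod1 (r -0.34) and SNAI2 (-0.33), and for Sox11 they were ZNF263 (-0.44), RREB1 (-0.44) and Arnt (-0.38). RREB1 (-0.76) and Myod1 (-0.73) were among those that opposed Sox5. Ahr::Arnt and SP2 opposed both Sox6 (-0.55 and -0.51) and SOX13 (-0.47 and -0.40), followed by NRF1 for Sox6 (-0.48) and Arnt for SOX13 (-0.40). The 3 POU4F motifs lay in the lower part of every ranking, from place 312 of 578 (POU4F2 with Sox5, r -0.06) to place 521 (POU4F1 with SOX4, r -0.16).

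**Figure D1:**
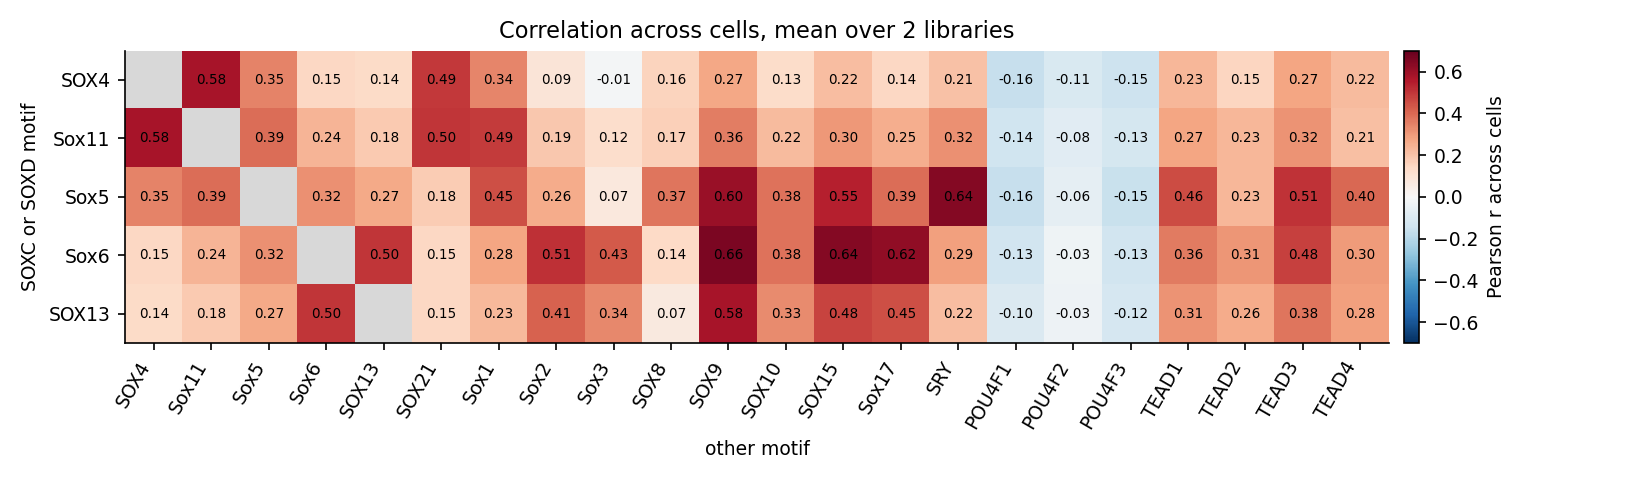
Pearson r across cells (colour and number, mean over 2 libraries of 890 and 1051 cells) of each of the 5 motifs (rows) with other SOX, POU4F and TEAD motifs (columns); grey marks a motif with itself. The row of SOX4 is strongest at Sox11 (0.58) and SOX21 (0.49), the rows of Sox6 and SOX13 at SOX9 (0.66 and 0.58), and every POU4F cell is below 0.

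Lists of motifs were then turned into a score per cell (mean z over the list, scaled to SD 1 within a library). With a score of the 7 SOXB and SOXE motifs, mean r was 0.33 for SOX4, 0.46 for Sox11, 0.52 for Sox5, 0.57 for Sox6 and 0.47 for SOX13. With the POU4F score it was -0.14, -0.12, -0.13, -0.10 and -0.09 in the same order of motifs. With the TEAD score, whose motifs are those of the DNA-binding partners of YAP and TAZ in Hippo signalling, r was 0.26 for SOX4, 0.30 for Sox11, 0.47 for Sox5, 0.43 for Sox6 and 0.36 for SOX13. None of these signs changed in the 35 values per score computed under the other settings, which ran from 0.21 to 0.57 for SOXB/SOXE, from -0.41 to -0.05 for POU4F and from 0.23 to 0.58 for TEAD. The proneural score (motifs of NEUROD, NEUROG and ATOH1 basic helix-loop-helix factors) opposed SOX4 (-0.21) and Sox5 (-0.28) but was near 0 for Sox11 (-0.07), Sox6 (0.01) and SOX13 (0.02), and 8 of its 35 values had the other sign. The score of 11 GC-rich promoter motifs (SP and KLF) was negative with every member: -0.12 for SOX4, -0.25 for Sox11, -0.59 for Sox5, -0.40 for Sox6 and -0.31 for SOX13.

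All 5 motifs were higher in SOXB/SOXE-high cells, those above the library's median of the SOXB/SOXE score. SOX4 took 0.0120% and 0.0130% of the counts of SOXB/SOXE-high cells in replicates 1 and 2, against 0.01125% and 0.0122% in SOXB/SOXE-low cells. Sox11 took 0.0227% and 0.0251% in SOXB/SOXE-high cells, against 0.0215% and 0.0237% in SOXB/SOXE-low cells. Each library gave the same direction, while the values of replicate 1 high and replicate 2 low cells lay close together because the libraries differ in level. Counts were summed per library and class and tested with edgeR's quasi-likelihood test, with library, POU4F class and SOXB/SOXE class in the model and Benjamini-Hochberg adjustment over 579 motifs. SOX4 was 0.089 higher (log2 fold change, SE 0.009, adjusted p = 8.96e-05), a rise of 6.37%. Sox11 was 0.074 higher (SE 0.0055, adjusted p = 2.4e-05). SOX13 (0.054), Sox6 (0.034) and Sox5 (0.015) also passed, with adjusted p = 5.03e-05, 7.14e-05 and 0.00121. SOX4 ranked 4 and Sox11 ranked 8 of 579 by fold. In this comparison 71.5% of all motifs passed the threshold of 0.05, 32.8% higher and 38.7% lower, so 5 of 5 stands against that background.

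These SOXB/SOXE results have a limit that lies in the motifs. The members were not in the score, but they share letters with motifs that were. All 4 motifs of a list of other SOX factors, also outside the score, were called higher too (Pou5f1::Sox2 0.065, SOX15 0.057), beside 32.8% of all motifs. With Sox1 and SOX21 left out of the score, the log2 difference was 0.057 for SOX4 and 0.044 for Sox11, and both were still called. The promoter motifs took 7.40% and 7.36% of counts in SOXB/SOXE-high cells, against 7.56% and 7.53% in SOXB/SOXE-low cells, and median totals were 3760677 and 3716432, against 3361098 and 3451406.5. Cells were also cut again after the promoter score was regressed out of the scores, with the summed motif counts left as they were. In that edgeR fit Sox5 was no longer called (log2 difference 0.0016, adjusted p = 0.645, with 1.15e-05 to 0.645 over its alternatives), and the other 4 were. This only regroups the cells, so the part of promoter content in the differences was not tested. Without the library term in the model, SOX4 (adjusted p = 0.203) and Sox11 (0.387) were not called, with the same log2 differences of 0.089 and 0.074. Over all the alternatives run, adjusted p ranged from 1.11e-19 to 0.203 for SOX4 and from 2.99e-35 to 0.387 for Sox11.

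In the POU4F median split none of the 5 was called, a count that changed when the promoter score was regressed out of the POU4F score. SOX4 took 0.0117% and 0.0126% of the counts of POU4F-high cells, against 0.0117% and 0.0127% in POU4F-low cells. Sox11 took 0.0222% and 0.0244% in POU4F-high cells, against 0.0221% and 0.0245% in POU4F-low cells. The log2 fold change was -0.013 for SOX4 (95% interval -0.034 to 0.009, adjusted p = 0.311) and -0.006 for Sox11 (-0.019 to 0.007, adjusted p = 0.436) in the edgeR fit. SOX13 (-0.007), Sox6 (-0.004) and Sox5 (-0.001) were not called either. The count of 0 of 5 was also 0 at an unadjusted p under 0.05 and 0 with DESeq2, while 30.7% of all motifs were called, 13% higher and 17.8% lower. The POU4F motifs themselves differed by 0.23 (POU4F1), 0.19 (POU4F2) and 0.20 (POU4F3), but they make up the score that cut the cells, so this is no result. The intervals allow changes of up to -0.034 for SOX4 and -0.019 for Sox11. The promoter motifs took 7.42% and 7.39% of counts in POU4F-high cells, against 7.54% and 7.48% in POU4F-low cells. With the promoter score regressed out of the POU4F score, 5 of 5 were called lower in POU4F-high cells (SOX4 -0.025, adjusted p = 0.0393), and in cells thinned to 300000 counts SOX4 was called lower (-0.031, adjusted p = 0.0496), with 0.0393 to 0.984 over its alternatives.

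The difference of the POU4F and SOXB/SOXE effects was tested directly in the same model. It was -0.10 for SOX4 (SE 0.013, adjusted p = 8.76e-04), -0.080 for Sox11 (SE 0.008, adjusted p = 4.29e-04), -0.061 for SOX13, -0.038 for Sox6 and -0.016 for Sox5. All 5 passed, against 65.1% of all motifs, 33.5% called higher and 31.6% lower. Each of the 5 differed more with the SOXB/SOXE split than with the POU4F split. One stretch of open DNA can be counted for a member and for a motif of the SOXB/SOXE score, so this contrast is not an even one. All 4 motifs of the list of other SOX factors were called lower in it too (Pou5f1::Sox2 -0.086, SOX15 -0.059). With Sox1 and SOX21 left out of the score, the difference was -0.066 for SOX4 and -0.048 for Sox11, still called, and its smallest size over the alternatives was -0.044 for Sox11. Without the library term, the difference was not called for SOX4 (adjusted p = 0.362, with 2.08e-12 to 0.362 over its alternatives), Sox11 (0.547, with 8.75e-20 to 0.547) or Sox6 (0.0503, with 3.48e-12 to 0.0503).

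**Figure D2:**
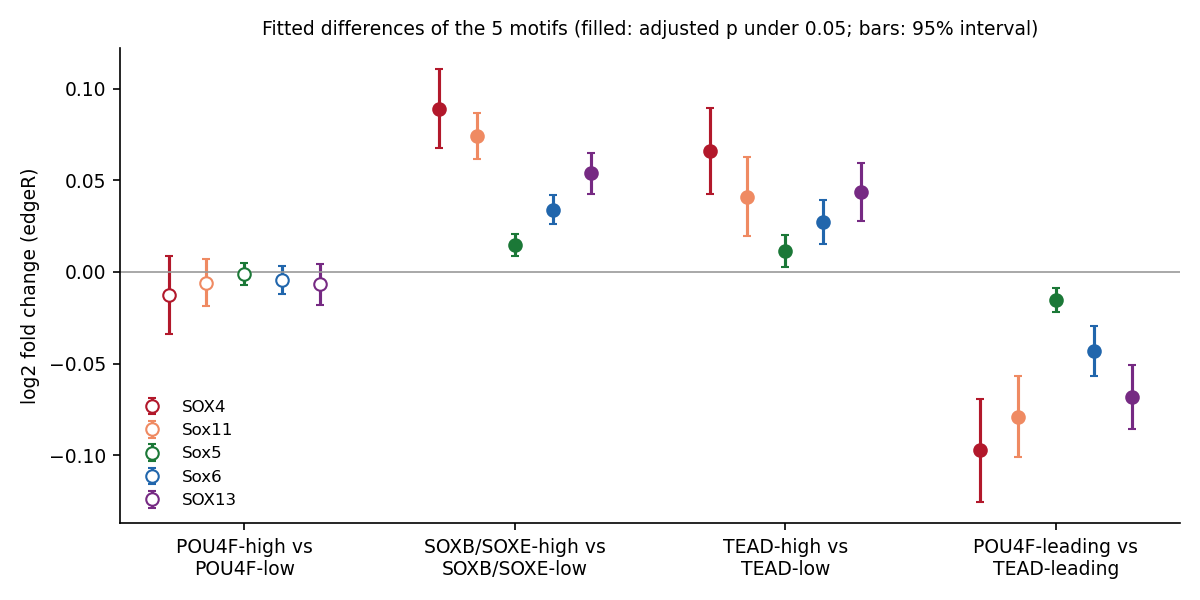
Fitted log2 fold change (y axis) of the 5 motifs in 4 comparisons (x axis), with 95% intervals from the edgeR fit; filled points have an adjusted p under 0.05. The POU4F-high points lie at or just below 0 (SOX4 -0.013), the SOXB/SOXE-high and TEAD-high points above 0 (SOX4 0.089 and 0.066), and the POU4F-leading points below 0 (SOX4 -0.097).

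The 5 motifs were not level across the upper range of the POU4F score. Over 5 equal bins of the POU4F score, the share of SOX4 relative to the library was -0.010 and -0.011 (log2, replicates 1 and 2) in bin 1, the lowest. It was 0.012 and -0.0001 in bin 2, 0.019 and 0.020 in bin 3 and 0.036 and 0.038 in bin 4. In bin 5, the cells with the highest POU4F score, it was -0.077 and -0.068. Sox11 did the same, with 0.027 and 0.025 in bin 4 and -0.051 and -0.058 in bin 5. All 5 members had their highest mean in bin 4 and their lowest in bin 5. Over the bins of the SOXB/SOXE score SOX4 was higher in each bin than in the one before, from -0.087 and -0.079 in bin 1 to 0.078 and 0.083 in bin 5. Over the TEAD bins it was -0.080 and -0.081 in bin 1 and 0.036 and 0.037 in bin 5, with most of the change below bin 3.

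Within POU4F-high cells, the level of SOX4 differed with the SOXB/SOXE class. SOX4 was -0.075 and -0.062 relative to the library in the 194 and 259 cells that were POU4F-high and SOXB/SOXE-low, and 0.050 and 0.045 in the 251 and 266 cells that were high for both. In POU4F-low cells it was -0.035 and -0.037 with SOXB/SOXE low and 0.040 and 0.041 with SOXB/SOXE high. The interaction of the classes was not in the model and was not tested. Any such interaction is part of the spread that the p-values of this fit measure. With the cut moved to the top bin of each score, a choice made after the bins were seen, POU4F-high cells had a SOX4 difference of -0.053 (adjusted p = 0.134, with 0.0393 to 0.984 over its alternatives), which was not called, and a Sox11 difference of -0.011. None of the 5 was called at that cut, 3 had an unadjusted p under 0.05, and 9.33% of all motifs were called, 5.01% higher and 4.32% lower. In the top bin of the SOXB/SOXE score all 5 were called higher, by 0.026 to 0.11, beside 42.3% of all motifs, 23.1% higher and 19.2% lower. The difference of these top-bin effects was called for 38% of all motifs, 15.4% higher and 22.6% lower. In the promoter-corrected POU4F split, the Sox11 difference was -0.016 (adjusted p = 0.0345, with 0.0345 to 0.993 over its alternatives), and 58.4% of all motifs were called, 34.7% higher and 23.7% lower.

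**Figure D3:**
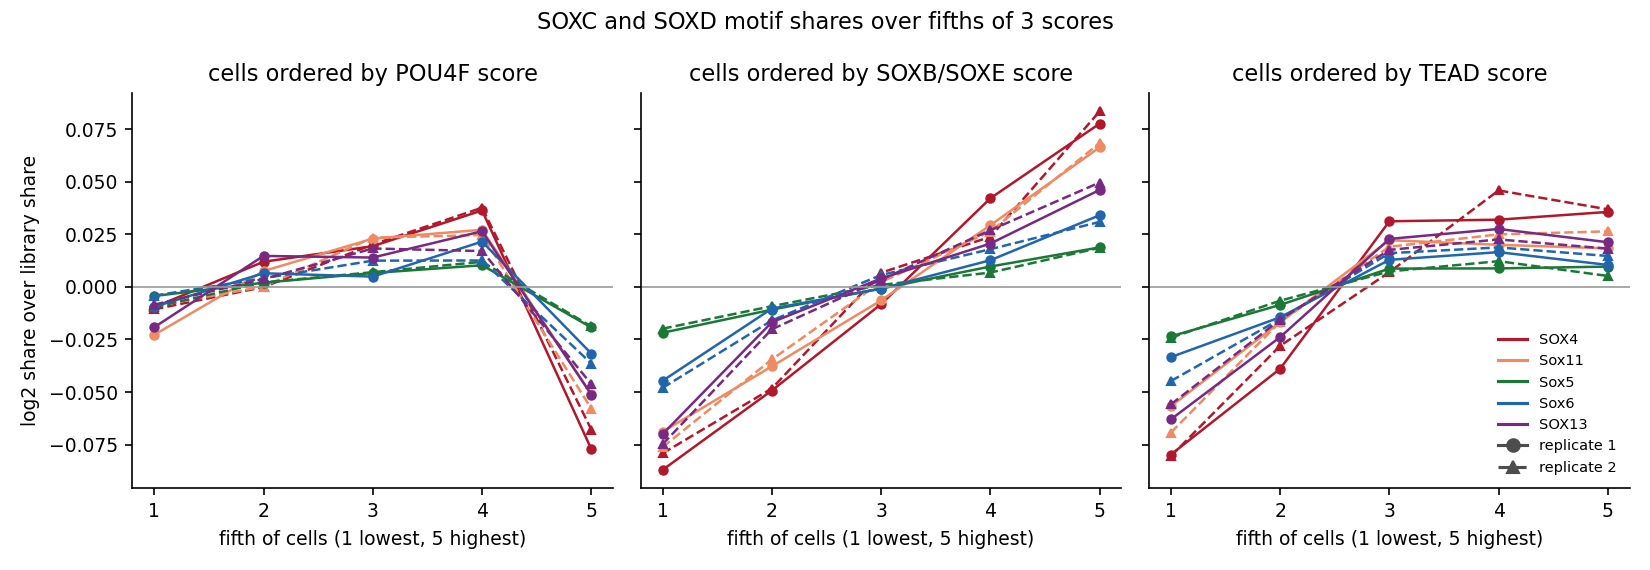
Log2 share over the library's share (y axis) of the 5 motifs in 5 equal bins of cells from lowest to highest score (x axis), for the POU4F, SOXB/SOXE and TEAD scores; circles and solid lines are replicate 1, triangles and broken lines replicate 2. In the POU4F panel every line peaks in bin 4 or bin 3 and drops below 0 in bin 5 (SOX4 -0.077 and -0.068); in the SOXB/SOXE panel every line climbs through 0.

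All 5 motifs were higher in TEAD-high cells. TEAD factors recognise another core than SOX factors, but the overlap of the counted sites was not measured. The TEAD score rose with the SOXB/SOXE score (r 0.41 and 0.45) and fell with the promoter score (-0.37 and -0.39), so the TEAD split is not independent of theirs. SOX4 took 0.0120% and 0.0129% of the counts of TEAD-high cells, against 0.0113% and 0.0123% in TEAD-low cells. The edgeR log2 fold change was 0.066 for SOX4 (SE 0.010, adjusted p = 0.00137), 0.043 for SOX13 (SE 0.007, adjusted p = 0.00144) and 0.041 for Sox11 (SE 0.009, adjusted p = 0.00696). Sox6 (0.027) and Sox5 (0.011) were called with adjusted p = 0.00353 and 0.0280. Of all motifs 66.8% were called, 28.3% higher and 38.5% lower. Among group B and E motifs the same comparison called Sox1 (0.048), SOX8 (0.052) and SOX9 (0.039) higher, while Sox2 (0.004), Sox3 (0.001), SOX21 (-0.004) and SOX10 (0.011) were not called; without TMM scaling Sox2 (0.011) and SOX10 (0.018) were called higher too, and DESeq2 called SOX10 (0.015). The promoter motifs took 7.44% and 7.39% in TEAD-high cells, against 7.52% and 7.49% in TEAD-low cells. With the promoter score regressed out, Sox5 lost its call (adjusted p = 0.214, with 1.64e-04 to 0.214 over its alternatives), and without the library term 1 of the 5, SOX13, was called. With the estimated dispersion, whose fit failed numerically, Sox5 (adjusted p = 0.0642) and Sox6 (0.452) lost their calls.

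With POU4F and TEAD in the model together, in place of SOXB/SOXE, the POU4F effect on the 5 motifs lay between 0.0009 and 0.0029. None was called, with 0 of 5 also at an unadjusted p under 0.05 and with DESeq2, and 14.7% of all motifs were called, 4.49% higher and 10.2% lower. The 95% interval was -0.023 to 0.024 for SOX4 and -0.019 to 0.025 for Sox11. This POU4F effect is an average over the TEAD classes. In TEAD-high cells SOX4 was 0.050 and 0.043 relative to the library (log2, replicates 1 and 2) with POU4F high, against 0.023 and 0.026 with POU4F low. In TEAD-low cells it was -0.051 and -0.046 with POU4F high, against -0.027 and -0.026 with POU4F low. All 5 motifs had these directions in both libraries, and the interaction was not tested. With the promoter score regressed out, all 5 were below 0 in the edgeR fit, from -0.013 for Sox5 to -0.021 for SOX4. Sox5 was then called lower (adjusted p = 0.0398), and 3 of 5 had an unadjusted p under 0.05. Of all 579 motifs 121 were called in that fit, 69 higher and 52 lower. Between the outer of 3 score groups none of the 5 was called and 2 had an unadjusted p under 0.05.

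Cells were also put in classes by the score that led them (the highest of the POU4F, proneural, TEAD and CRX/OTX scores, if at least 1 SD). The POU4F-leading class had 134 and 141 cells, the proneural-leading 86 and 104, the CRX/OTX-leading 81 and 93, the TEAD-leading 129 and 130, and 460 and 583 cells had no leading list. All 5 SOX motifs were lower in POU4F-leading than in TEAD-leading cells. SOX4 took 0.0111% and 0.0120% of counts in POU4F-leading cells, against 0.0120% and 0.0129% in TEAD-leading cells. Sox11 took 0.0212% and 0.0232%, against 0.0226% and 0.0247%, and SOX13 0.0369% and 0.0375%, against 0.0389% and 0.0397%. Within each library the POU4F-leading value was the lower one. All 5 were above the library in TEAD-leading cells and also in cells with no leading list, which were not tested. SOX4 was 0.030 and 0.025 (log2) above the library with no leading list, against 0.045 and 0.027 in TEAD-leading cells. For Sox11 this was 0.019 and 0.020, against 0.026 and 0.016. A level above the library was therefore not particular to TEAD-leading cells.

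The edgeR log2 fold change of POU4F-leading over TEAD-leading cells was -0.097 for SOX4 (SE 0.013, adjusted p = 2.51e-06), a change of -6.52% on the linear scale. It was -0.079 for Sox11 (SE 0.010, adjusted p = 1.6e-06), -0.068 for SOX13 (SE 0.008, adjusted p = 5.07e-07), -0.043 for Sox6 (adjusted p = 7.67e-06) and -0.015 for Sox5 (adjusted p = 2e-04). Of all 579 motifs 77.2% were called, 40.6% higher and 36.6% lower, and SOX4 was the 38th and Sox11 the 61st from the lowest fold. The median of the 5 was -0.068, beside 0.004 over all motifs. The promoter motifs took 7.45% and 7.44% in POU4F-leading cells, against 7.41% and 7.35% in TEAD-leading cells; Sox5 was not called once their score was regressed out (adjusted p = 0.0567, with 8.21e-10 to 0.212 over its alternatives). Without the library term SOX4 (adjusted p = 0.363), Sox11 (0.546) and Sox5 (0.0503) were not called; over the alternatives adjusted p ran from 1.12e-10 to 0.363 for SOX4 and from 9.45e-14 to 0.546 for Sox11. With the estimated dispersion Sox6 (adjusted p = 0.188) and Sox5 (0.212) were not called, and the other 3 were.

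**Figure D4:**
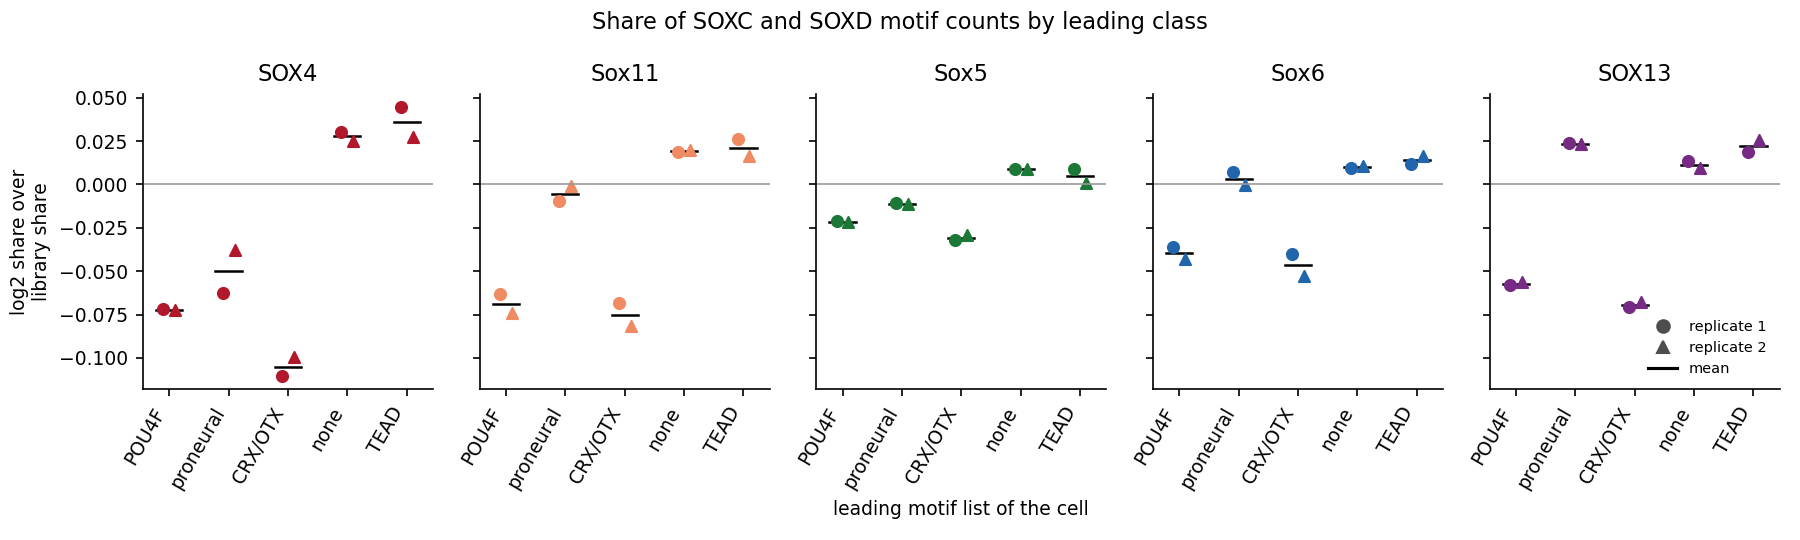
Log2 share over the library's share (y axis) of each of the 5 motifs in cells grouped by leading motif list (x axis); circles are replicate 1, triangles replicate 2 and bars their mean. SOX4 is below the library in the POU4F (-0.072 and -0.073), proneural and CRX/OTX classes. It is above the library in the TEAD class (0.045 and 0.027) and in cells with no leading list (0.030 and 0.025). SOX13 is above the library in the proneural class (0.024 and 0.023).

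Other SOX motifs were also lower in POU4F-leading cells. SOX9 (-0.066), SOX8 (-0.062), Sox1 (-0.058) and SOX10 (-0.019) were called lower in POU4F-leading than in TEAD-leading cells. The SOX8 difference in shares was -0.030 in replicate 1 and -0.12 in replicate 2, so its size rests on replicate 2. Sox2 (0.004, adjusted p = 0.229), Sox3 (-0.001, adjusted p = 0.880) and SOX21 (0.013, adjusted p = 0.307) were not called by edgeR, although SOX21 was the nearest group B motif of SOX4 and Sox11. So 1 of 4 SOXB and 3 of 3 SOXE motifs fell, beside 5 of 5 members, but the SOXB count depends on the scaling: without TMM, Sox2 (-0.007, adjusted p = 0.0115) and Sox3 (-0.012, adjusted p = 0.00241) were called lower as well, while DESeq2 called Sox1 alone. All 4 motifs of a list of other SOX factors were called lower too, with the largest differences at Pou5f1::Sox2 (-0.12) and SOX15 (-0.066). Of all motifs 40.6% were called higher and 36.6% lower. Differences between motifs were not tested. Of the other lists, 7 of 7 progenitor homeodomain motifs were lower (Pax6 -0.11) and 3 of 3 ONECUT motifs were higher (ONECUT1 0.25). The TEAD (median -0.18) and POU4F motifs (median 0.44) define the classes, so their differences are no result. Among TCF/LEF motifs, which belong to other HMG-box factors, 1 of 4 was lower (TCF7L2, -0.10) and 3 were not called.

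In proneural-leading cells, which carry the motifs of factors that start neurogenesis, 3 of the 5 motifs were called lower than in TEAD-leading cells. Differences between the motifs were not tested. SOX4 took 0.0112% and 0.0123% of counts in proneural-leading cells, against 0.0120% and 0.0129% in TEAD-leading cells. Its edgeR log2 fold change was -0.086 (SE 0.013, adjusted p = 3.35e-05), and leaving out 1 library gave -0.11 to -0.062. Sox11 was lower by a smaller amount (-0.027, SE 0.011, adjusted p = 0.0416), and without replicate 1 its value was -0.015. Sox5 was lower too (-0.016, adjusted p = 2.84e-04; -0.0094 without replicate 1). Sox6 (-0.011, adjusted p = 0.164) and SOX13 (0.001, 95% interval -0.017 to 0.018, adjusted p = 0.952) were not called; the Sox6 value was -0.014 without replicate 1 and -0.0048 without replicate 2. Here 45.6% of all motifs were called, 22.8% higher and 22.8% lower. Without the library term none of the 5 was called and 1 had an unadjusted p under 0.05. With dispersion 0, Sox11 was not called (adjusted p = 0.0553, with 0.00579 to 0.950 over its alternatives). With the estimated dispersion none of the 5 was called and 1 had an unadjusted p under 0.05. The levels also depended on how cells were grouped. SOX13 was 0.024 and 0.023 (log2) above the library in proneural-leading cells. In the highest of 5 equal bins of the proneural score it was -0.0078 and -0.013, and Sox6 was -0.0083 and -0.019. All 5 motifs lay below the library in that bin in both replicates.

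Between POU4F-leading and proneural-leading cells, SOX13 (-0.069, SE 0.008, adjusted p = 5.95e-07), Sox11 (-0.052, SE 0.011, adjusted p = 2.34e-04) and Sox6 (-0.032, SE 0.006, adjusted p = 2.63e-04) were lower in POU4F-leading cells. SOX13 took 0.0369% and 0.0375% of counts in POU4F-leading cells, against 0.0391% and 0.0396% in proneural-leading cells. SOX4 (-0.011, 95% interval -0.039 to 0.017) and Sox5 (0.001, -0.005 to 0.008) were not called. The SOX4 difference in shares was -0.0091 in replicate 1 and -0.035 in replicate 2. Its fitted value ran from -0.026 to -0.00091 with 1 library left out. Sox5 depends on the scaling: its share was lower in POU4F-leading cells by -0.011 and -0.010 (log2) in the 2 libraries, it was called lower without TMM (-0.010, adjusted p = 5.26e-04, with 5.26e-04 to 0.968 over its alternatives), and each library alone gave -0.0012 or -0.0025. In this comparison 73.1% of all motifs were called, 38.7% higher and 34.4% lower. Sox11 lost its call in the middle of 3 depth groups of cells (adjusted p = 0.547, with 4.58e-07 to 0.721 over its alternatives), as did Sox6 (0.0597, with 1.5e-10 to 0.407), and Sox11 lost it in cells thinned to 300000 counts (0.474). With the estimated dispersion none of the 5 was called, SOX13 included (adjusted p = 0.0528, with 6.64e-19 to 0.0528 over its alternatives), and 1 had an unadjusted p under 0.05. Without the library term 1 of the 5, SOX13, was called. SOX4 lay below the library in both of these classes, while Sox11, Sox6 and SOX13 were called lower in the POU4F-leading than in the proneural-leading class, with the losses given here.

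In the CRX/OTX-leading class, with the motifs of photoreceptor precursors, the 5 motifs were also below the library in both replicates: SOX4 by -0.11 and -0.10, Sox11 by -0.068 and -0.082, SOX13 by -0.071 and -0.068, Sox6 by -0.040 and -0.053, and Sox5 by -0.032 and -0.029. This class was not tested against another. It had the lowest median total (2844884 and 2898398 counts) and the highest promoter share (7.67% and 7.64%), whose part in these levels was not tested.

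Motif lists of cell types that a dissociated retina can also hold were summed in the same classes. The 4 MITF and TFE motifs of pigment epithelium, each called higher in POU4F-leading cells, took 0.528% and 0.529% of counts in POU4F-leading cells, against 0.515% and 0.516% in TEAD-leading cells. GATA and TAL motifs of endothelial and blood cells took 0.573% and 0.567%, against 0.572% and 0.568%, and RUNX and SPI motifs of microglia 2.30% and 2.29%, against 2.26% and 2.25%. The sums are dominated by 1 motif each, GATA3 (0.493% and 0.488% of all counts) and SPIB (2.08% and 2.07%). By edgeR, 2 of 4 GATA and TAL motifs were called higher (GATA2 0.043), and of 6 RUNX and SPI motifs 1 was called higher and 2 lower, with the largest differences at SPI1 (-0.055) and RUNX3 (-0.050). Of all motifs 40.6% were called higher and 36.6% lower in the same comparison. None of the motifs of these lists was at 0 in either class. Their part in the SOX differences was not tested. Scores are continuous, so a class is a range and not a cell type: 21.9% and 20.2% of cells lay within 0.1 SD of the POU4F median, 12.9% and 9.51% of the SOXB/SOXE median and 5.84% and 8.94% of the TEAD median.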

How the data were processed

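Per the labels' protocols, 2 replicates of WT retina (E14.5) were dissociated and made into 10X Genomics single-cell ATAC-seq libraries. The deposited counts are whole numbers of motif occurrences per barcode; Cell Ranger and the mm10 build are named in the submitters' processing notes, and software version 1.1.0 in the file headers. No source used here gives the motif matrices or scan thresholds. Doublets were not called; leaving out the deepest 5% of cells stands in for it. Depth was 3373212147 and 3932721221 counts in total, 98.3% and 97.3% of them in kept cells.

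Members, lists, comparisons and the rule for named motifs (the 5 members; POU4F, SOXB and SOXE motifs; the 5 nearest and 3 most opposed motifs of each member; at most 2 of other lists) were chosen with earlier results of these data known. 1 motif that this rule names is not reported here. Classes were cut at the library median, or by leading score. Counts were summed per library and class (8 or 10 sums, 4 residual degrees of freedom) and fitted with edgeR 4.0.16 in R 4.3.3 (TMM, filterByExpr, which kept all 579 motifs, library as a block because the classes of a library share it). The estimated dispersion, 9.77e-05, lay at the end of its search range, where the fit failed numerically for such large sums; it was therefore fixed at 0.001 after this was seen, and estimated, 0 and limma-trend (limma 3.58.1) fits are alternatives, as is DESeq2 1.42.0. On simulated sums of 579 motifs for POU4F-high against POU4F-low cells, 99 of 100 changes of 1.05-fold and 100 of 100 of 1.2-fold were called, with 9 of 379 unchanged motifs. For POU4F-leading against TEAD-leading cells these were 98, 100 and 6 of 379. The simulated motifs varied independently, with a spread taken from the same fits and no class differences but the changes put in. These counts therefore do not give the error rate in the real data, whose motifs are correlated. No change smaller than 1.05-fold was simulated. Shares are compositional, so a difference is relative to the other motifs. Fits on thinned or depth-limited cells, with promoter-corrected scores and with other cuts, are among the alternatives.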

Additional observations from a re-analysis of the deposited data

Results flagged for a closer look

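Signal lay in barcodes that no comparison used. The barcodes left out by the cell filter held 917441 counts of the 5 motifs in replicate 1 and 1686888 in replicate 2. Their shares in these barcodes were close to those in kept cells, with SOX4 at 0.0117% and 0.0123% and Sox11 at 0.0224% and 0.0243% of counts. Of the 1532 barcodes left out in replicate 1, 925 carried the barcode of a kept cell of replicate 2. In replicate 2, 872 of the 1982 left out carried that of a kept cell of replicate 1. Part of these counts therefore lay in barcodes that were used in the other library.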

How the results depend on the processing

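Of 490 values of the 5 motifs in 7 comparisons under the alternatives, 431 kept their direction and side of the threshold, 34 lost a call, 7 gained one and 18 changed sign. Of those, the called ones were Sox5 between POU4F-leading and proneural-leading cells, lower at -0.010 without TMM and -0.0045 at 0.5 SD; DESeq2 gave -0.0020 and cells of at least 1000000 counts -0.0022, uncalled. The others were uncalled in both fits. In the POU4F split with TEAD in place of SOXB/SOXE, values were 0.00089 (SOX4), 0.0029 (Sox11), 0.0023 (Sox5), 0.0013 (Sox6) and 0.0016 (SOX13); Sox11 was 0.0016 in thinned cells, Sox5 0.00051 at 1000000 counts, and Sox5 and Sox6 0.0079 and 0.0017 between the outer of 3 score groups. SOX13 between proneural-leading and TEAD-leading cells was -1.2e-05 without the deepest 5% of cells, -0.022 in the middle depth group, -0.0052 thinned and -0.0025 at 0.5 SD, and SOX4 between POU4F-leading and proneural-leading cells was 0.031 in the middle depth group. Without a replicate block, calls numbered 1 (POU4F), 181 (SOXB/SOXE), 99 (their difference), 167 (TEAD), 207 (POU4F-leading against TEAD-leading), 56 (proneural-leading against TEAD-leading) and 164 (POU4F-leading against proneural-leading), against 178, 414, 377, 387, 447, 264 and 423 with the library block; SOX4 and Sox11 then had log2 differences of 0.089 and 0.074 for SOXB/SOXE and -0.10 and -0.080 for the difference, uncalled. With the estimated dispersion, which failed numerically, the 3 leading-class counts were 182, 16 and 107, and SOX4 (adjusted p = 0.254) and Sox11 (0.795) were uncalled between proneural-leading and TEAD-leading cells. With the promoter score regressed out, counts were 338 (POU4F), 259 (SOXB/SOXE) and 234 (TEAD), and SOX4 (-0.025) and Sox11 (-0.016) became lower in POU4F-high cells. In thinned cells SOX4 was also called lower there (-0.031), and the difference had 195 calls. With the top bin of each score as the cut, chosen after seeing the data, calls were 54, 245 and 220; the TEAD model could not be run so (9 cells in its smallest class). With TEAD in place of SOXB/SOXE, the POU4F split had 85 calls. Leaving out 1 library gave, for SOX4, -0.016 to -0.0074 (POU4F), 0.086 to 0.097 (SOXB/SOXE) and -0.11 to -0.093 (difference), and for Sox11 -0.0050 to -0.0048, 0.074 to 0.078 and -0.083 to -0.079. Without TMM the share of calls that were higher was 40.8% for the difference, 54.2% for TEAD and 42.0% between POU4F-leading and proneural-leading cells, against 51.5%, 42.4% and 53.0% with it. The cause of these changes was not tested. Leaving out shared barcodes was not run, since 18 and 126 cells remain. With 2 libraries, no motif difference can be set against the spread between animals.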
